A study of Cloeon viridulum with 15 samples.

Results

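Winged subimagoes of the mayfly Cloeon viridulum were compared with young larvae over the assembled transcripts, called unigenes, whose best protein match lay in an animal. Of the 91881 unigenes in the deposited table, 17344 had such a match, 15002 of them in an arthropod and 2342 in another animal, and 12885 of the 17344 had enough reads in the 6 libraries to be tested. The comparison used 3 young larva libraries, each of 10 pooled whole animals, and 3 subimago libraries, each of 3 males and 3 females pooled as whole bodies. Per the labels, young larvae were field-caught from a pool or lake and kept with its water and plants under 16 h of light and 8 h of dark (22 ± 1 °C, humidity 60%). The subimagoes were raised from such larvae, and the labels name no treatment in either stage. The sex of the young larvae is not stated in the labels. The labels call the libraries biological replicates, and p-values measure the spread between these pools. In pooled whole bodies, fewer cells of a type and less RNA per cell cannot be told apart. Levels are given as CPM, read counts scaled to the TMM-adjusted size of each library, in the order of replicates 1, 2 and 3.

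Mayflies are the living insects that moult once more after they have gained working wings. The larva lives in water, breathes through gills, grazes and grows through many moults. The subimago that leaves the water has wings but does not feed, and it moults into the imago, which mates, lays eggs and dies. Moults are timed by pulses of ecdysteroids, and juvenile hormone in larvae holds back the adult form.

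Library totals were 36550269, 44206541 and 48798785 reads in young larvae and 42389906, 42167085 and 43196419 reads in subimagoes. Best matches in protists or fungi took 8, 1.74 and 5.05% of young larva reads and between 0.313 and 0.393% of subimago reads. Matches in animals other than arthropods took 8.35, 2.75 and 5.62% of young larva reads and between 1.61 and 2.27% of subimago reads. Young larva replicate 2 had the lowest share of both among the young larva libraries. A single unigene with no match, First_Contig81, took 21.5% of the reads of subimago replicate 3, where the TMM factor was 0.832 against 1.15 and 1.2 in the other subimago libraries. On log2 values, young larva libraries correlated with each other at 0.92 to 0.981 and subimago libraries at 0.987 to 0.994.

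Most of the animal-matched transcriptome differed between the stages. Of the 12885 animal-matched unigenes tested, 5250 were higher in subimagoes (40.7%) and 4704 were lower (36.5%), at an adjusted p under 0.05 in edgeR's quasi-likelihood test with Benjamini-Hochberg adjustment over all 29479 unigenes tested. Over all 29479, the corresponding counts were 9440 higher (32%) and 11733 lower (39.8%). The median log2 change, subimago minus young larva, was 0.09 for animal matches and -0.30 for all unigenes tested. Among animal matches, 3077 were called lower by more than 4-fold, against 1863 called higher by more than 4-fold. That order turned without the unigenes low in young larva replicate 2, described next, to 1412 lower and 1723 higher.

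Arthropod matches and other-animal matches differed in these counts. Of 11524 arthropod-matched unigenes tested, 4895 rose and 3882 fell, with a median log2 change of 0.20. Of 1361 other-animal matches tested, 355 rose and 822 fell, with a median of -4.20. Protist or fungus matches, which do not enter the comparison, fell in 1731 of 2013 cases, with a median of -8.02. The level in young larva replicate 2 moved with these groups. It was under 0.5 times the mean of replicates 1 and 3 in 80.4% of the other-animal matches that fell and in 83.7% of the protist or fungus matches that fell. Among arthropod matches the same held for 1053 of the 3882 that fell (27.1%) and for 132 of the 4895 that rose (2.7%). Falls that were this low in young larva replicate 2 are counted beside each list that holds more than 1 of them. The part that other organisms in the larval samples may have in these falls was not tested. Without the unigenes low in that library, 5091 animal matches rose and 2990 fell, so that 63% of the calls were rises, against 52.7% with all animal matches. That filter was set after the data were seen, uses young larva values only, and has no counterpart in the subimago libraries. Longer unigenes rose more often. With arthropod matches sorted by length into 4 bins of equal size, the median log2 changes were -0.30, 0.10, 0.40 and 0.40 from the shortest bin to the longest.

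**Figure D1:**
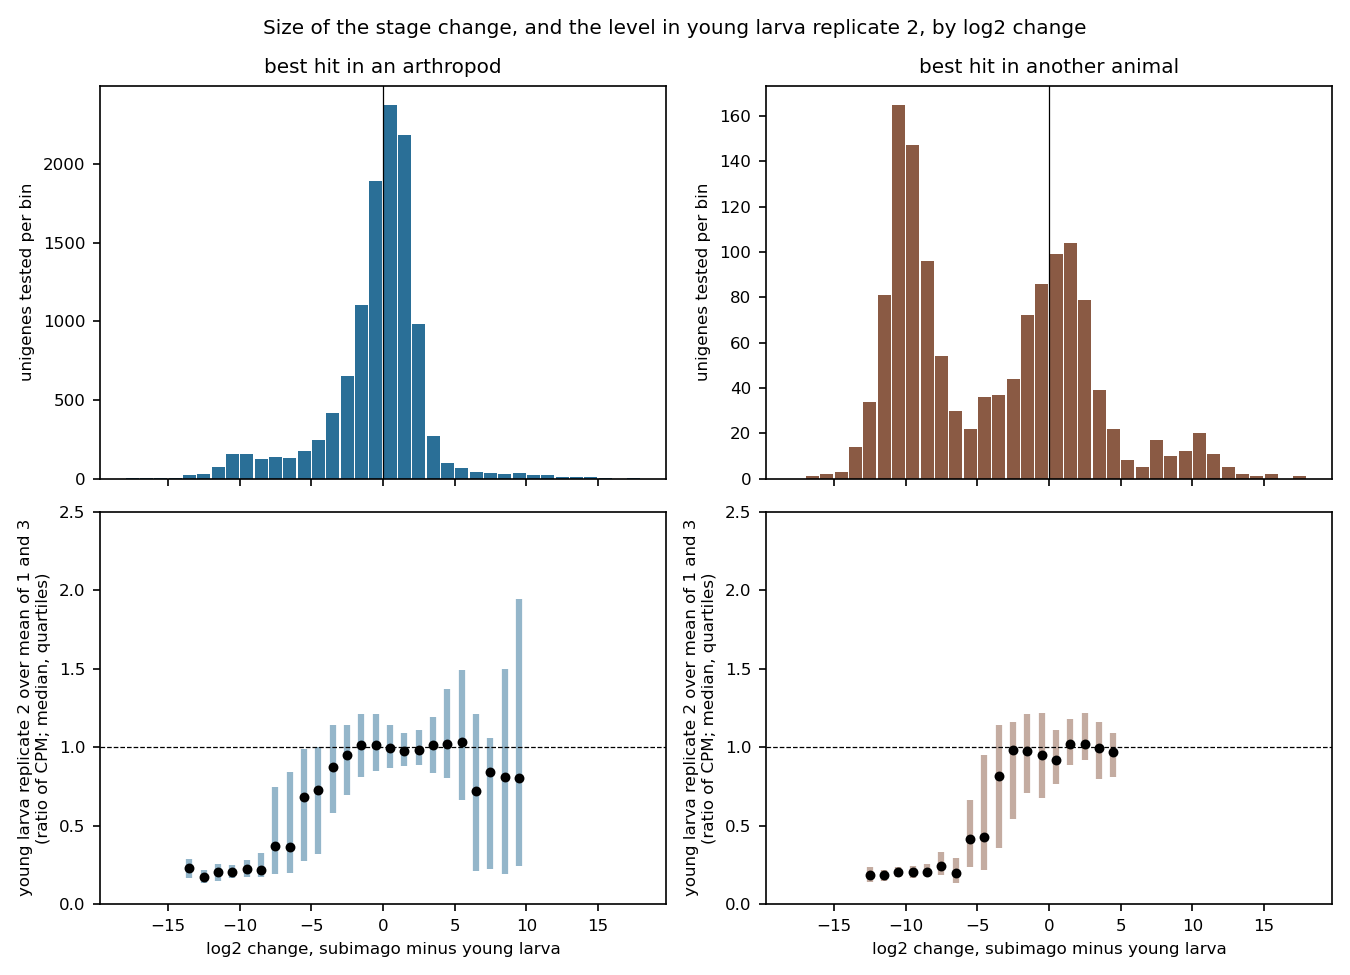
Upper panels count the tested unigenes in bins of 1 log2 unit of change, subimago minus young larva, for arthropod and other-animal best matches. Lower panels give, per bin of at least 20 unigenes, the median (point) and quartiles (bar) of the CPM in young larva replicate 2 over the mean of replicates 1 and 3. Arthropod matches peak just above 0, other-animal matches have a further peak near a log2 change of -10, and in both classes the median ratio lies near 0.2 in the bins that start at -13 to -9.

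Functional groups were described with 31 lists formed from words in the protein names. Counts of rises and falls cover the tested members, and summed levels cover all members of a list, tested or not. For example, the muscle list had 92 members, of which 52 were tested. Over all animal matches tested, 40.7% rose and 36.5% fell. More members fell than rose in 21 lists, and more rose than fell in 10. Under scaling on arthropod matches more rose than fell in 5 lists, and rises equalled falls in 1. Names come from the best match in another species, several unigenes can be pieces or close copies of the same gene, and reads shared between such copies make their separate values uncertain. Whether reads were counted by strand is not given in the sources used here.

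**Figure D2:**
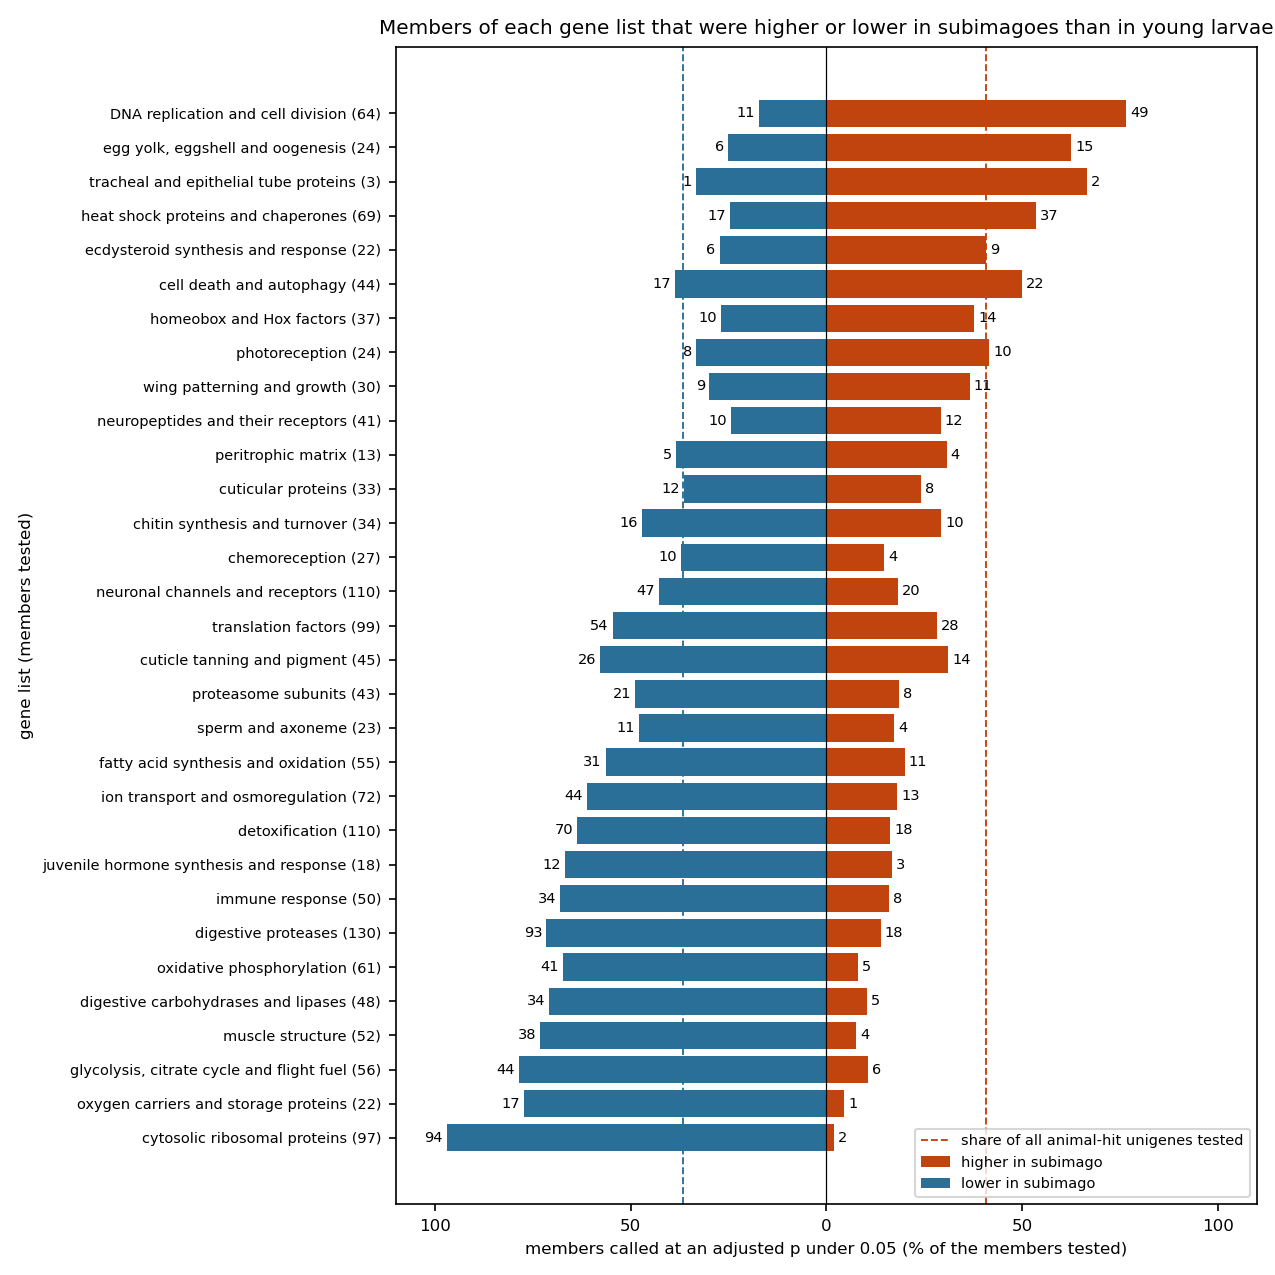
Bars give the share of the tested members of each of 31 lists that were called higher (right) or lower (left) in subimagoes, with the counts at the bar ends and the number tested in parentheses. Dashed lines mark 40.7% higher and 36.5% lower, the shares over all 12885 animal-matched unigenes tested. Cytosolic ribosomal proteins stand at the lower end with 94 of 97 falling, and DNA replication and cell division at the upper end with 49 of 64 rising.

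Genes of the contractile apparatus were lower in the flying stage. Of 52 muscle unigenes tested, 38 fell, 4 rose and 10 did not pass, with a median log2 change of -2.32. Of the 38 falls, 3 were low in young larva replicate 2. The summed level of the list was 38155, 40253 and 52383 CPM in young larvae and 2140, 1535 and 1671 CPM in subimagoes, a 24.5-fold difference between the means. Muscle myosin heavy chain (Second_Contig9), the motor protein of the thick filament, stood at 12406, 13033 and 17603 CPM in young larvae and at 187, 125 and 114 CPM in subimagoes. The stages did not overlap, and its log2 change was -6.66 ± 0.30 (SE, adjusted p = 1.42e-05). Myosin light chain 2, which binds the myosin neck, went from 9471, 11288 and 12643 CPM to 219, 86.2 and 100 CPM (-6.36 ± 0.47, adjusted p = 8.46e-05). Tropomyosin-1 and troponin T, which gate the thin filament, fell by 4.82 and 4.38 on the log2 scale. Flightin is known in Drosophila as a thick-filament protein of the indirect flight muscle. Its unigene was higher in the wingless stage, with 1248, 1546 and 1500 CPM in young larvae and 39.4, 20.1 and 21.9 CPM in subimagoes (-5.72 ± 0.34, adjusted p = 3.66e-05). Giant and cross-linking proteins changed by less on the log2 scale, titin by -2.21 ± 0.17 and sarcomeric alpha-actinin by -3.44 ± 0.14 (adjusted p = 7.43e-05 and 1.08e-05).

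Against this trend, a unigene named troponin C isoform 1, whose product binds calcium on the thin filament, was 0.844, 0.557 and 0.733 CPM in young larvae and 103, 55.6 and 56.3 CPM in subimagoes. All subimago libraries lay above all young larva libraries, a 101-fold rise (log2 change 6.66 ± 0.38, adjusted p = 2.90e-05). Kettin, a spring protein of the sarcomere, rose by a log2 change of 1.08 ± 0.26 (adjusted p = 0.00988), a call lost without young larva replicate 3 (adjusted p = 0.05), with library totals (0.0665) and with a filter of at least 1 CPM in 3 libraries (0.0785). In mature larvae the muscle list summed to 13557 CPM in replicate 1, which here lay between the young larvae and the other mature larva libraries, and to 4968 and 3515 CPM in replicates 2 and 3. In imagoes it summed to 2056 ± 172 CPM (SD, n = 3).

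Most enzymes of energy supply were lower in subimagoes, while most subunits coded in the mitochondrion did not pass the test. Of 56 unigenes of glycolysis, the citrate cycle and flight fuel, 44 fell and 6 rose (median log2 change -1.35), and 12 of the falls were low in young larva replicate 2. Without the unigenes low in that library the median was -0.84. Glyceraldehyde-3-phosphate dehydrogenase (13_Contig_2955), a central glycolytic enzyme, had 1003, 972 and 1376 CPM in young larvae and 166, 156 and 157 CPM in subimagoes (-2.81 ± 0.16, adjusted p = 2.87e-05). Arginine kinase, which buffers ATP in insect muscle, was 589, 809 and 779 CPM in young larvae and 74.1, 53.7 and 44.3 CPM in subimagoes (-3.66 ± 0.25, adjusted p = 5.27e-05). Both were lower in every subimago library than in any young larva library. Triosephosphate isomerase was present as a pair of unigenes that moved in opposite directions. 13_Contig_11201 fell by 3.06 on the log2 scale and 13_Contig_6846 rose by 1.05 ± 0.12, from 46.9, 41 and 44.7 CPM to 80.7, 94.5 and 98.9 CPM.

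Of 61 unigenes of oxidative phosphorylation, 41 fell and 5 rose (median -1.08), and 13 of the falls were low in young larva replicate 2. Among the arthropod matches, 15 carried the name of a mitochondrial gene and had 4 falls and 2 rises, with a median log2 change of -0.10. The 39 with any other name were taken as nuclear and had 30 falls and 3 rises, with a median of -1.28. Without unigenes low in young larva replicate 2 the medians were -0.07 and -0.90. This split was made after the values were seen and has no test of its own. ATP synthase subunit beta, nuclear and part of the catalytic head, went from 912, 956 and 1077 CPM to 149, 146 and 140 CPM (-2.76 ± 0.10, adjusted p = 9.48e-06). Cytochrome c oxidase subunit 1, mitochondrial and the catalytic core of its complex, was 9531, 11458 and 11610 CPM in young larvae and 11896, 7854 and 10665 CPM in subimagoes. The stages overlapped, with a log2 change of -0.10 ± 0.18 (adjusted p = 0.642). Cytochrome b overlapped as well, at -0.04 ± 0.20 (adjusted p = 0.872). ATP synthase subunit a, also mitochondrial, rose from 109, 151 and 118 CPM to 300, 231 and 324 CPM (13_Contig_33492, 1.17 ± 0.18, adjusted p = 0.00153). The summed level of the list, which these mitochondrial genes dominate, was 28372 ± 2053 CPM in young larvae and 23711 ± 4680 CPM in subimagoes (SD, n = 3 each), with overlap, and 8056 ± 311 CPM in imagoes.

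Genes of fatty acid metabolism moved in both directions. Of 55 tested, 31 fell and 11 rose (median -0.94), and 8 falls were low in young larva replicate 2. The summed level was 2574 ± 373 CPM in young larvae and 2600 ± 309 CPM in subimagoes. Carnitine O-palmitoyltransferase 1, the gate for fatty acids into the mitochondrion, rose from 159, 180 and 173 CPM to 346, 340 and 338 CPM (1.00 ± 0.09, adjusted p = 1.44e-04). Delta-9 desaturase 1, which puts a double bond into newly made fatty acids, fell from 238, 279 and 261 CPM to 90.6, 88.6 and 80.9 CPM (-1.58 ± 0.10, adjusted p = 4.40e-05). Both genes had tight libraries and no overlap.

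Most unigenes on the digestive enzyme lists were lower in the subimago, which does not feed, and some were close to 0. The digestive protease list was formed from names such as trypsin, cathepsin, aminopeptidase and serine protease, which do not say whether a member acts in the gut. Of its 130 unigenes tested, 93 fell, 18 rose and 19 did not pass, with a median log2 change of -3.89. Of 48 carbohydrases and lipases, 34 fell and 5 rose, with a median of -3.50. Young larva replicate 2 was low in 47 of the 93 protease falls and in 22 of the 34 carbohydrase and lipase falls, and the medians without unigenes low in that library were -2.35 and -1.26. Chymotrypsin BI (13_Contig_12396), a serine protease, was 3536, 584 and 3295 CPM in young larvae and 0.165, 0.0198 and 0.0556 CPM in subimagoes. Replicate 2 was the low young larva library and still lay far above every subimago library (log2 change -14.85 ± 1.25, adjusted p = 1.44e-04, between -15.84 without subimago replicate 1 and -14.19 without subimago replicate 2). Alpha-amylase, which cuts starch, showed the same order, with 2201, 172 and 1844 CPM in young larvae and 0.165, 0.197 and 0.0556 CPM in subimagoes (-13.22 ± 1.42, adjusted p = 3.81e-04). Endoglucanase, a cellulose-cutting enzyme, was even across the young larva libraries at 45.3, 49.5 and 51.1 CPM and stood at 5.73, 3.97 and 3.45 CPM in subimagoes (-3.47 ± 0.23, adjusted p = 4.51e-05). Peritrophic matrix protein 14 (13_Contig_36423), a protein of the sheath around food in the gut, went from 509, 117 and 500 CPM to 0.103, 0.0987 and 0.0834 CPM (-11.90 ± 0.87, adjusted p = 8.07e-05).

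A smaller set of proteases rose. Serine protease H82 (13_Contig_621) was 50.9, 60.8 and 65.5 CPM in young larvae and 669, 547 and 647 CPM in subimagoes, 10.5-fold higher with no overlap (3.39 ± 0.15, adjusted p = 1.22e-05). It was back at 41 ± 1.06 CPM in imagoes and stood at 42.2, 79.7 and 39.9 CPM in mature larvae, so the subimago libraries lay above all libraries of the other 3 single stages. Trypsin-7 had the same order, with 15.5, 20.9 and 19.6 CPM in young larvae, 156, 116 and 135 CPM in subimagoes and 24.1 ± 1.46 CPM in imagoes (2.86 ± 0.18, adjusted p = 3.52e-05). Aminopeptidase N-10 rose from 67, 76.6 and 70.5 CPM to 278, 291 and 310 CPM and was 322 ± 7.68 CPM in imagoes. Among 13 peritrophic matrix unigenes, 4 rose (30.8%) and 5 fell (38.5%), beside 40.7% and 36.5% over all animal matches. Of these falls 3 were low in young larva replicate 2, and the order turned to 4 rises and 2 falls without such unigenes.

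Most unigenes on the list of oxygen carriers and storage proteins, which also holds ferritin and apolipoprotein names, were lower in subimagoes. Of 22 tested, 17 fell and 1 rose, with a median log2 change of -4.08, and 2 of the falls were low in young larva replicate 2. Hexamerin 1 (13_Contig_210), a storage protein of the hemolymph that insects make while they feed, was 12040, 13406 and 14419 CPM in young larvae and 91.8, 105 and 102 CPM in subimagoes. The difference of 133-fold was far beyond the spread within either stage (-7.06 ± 0.15, adjusted p = 2.78e-06). Apolipophorin, the lipid carrier of the hemolymph, went from 2467, 2397 and 3039 CPM to 409, 165 and 112 CPM (-3.53 ± 0.52, adjusted p = 0.00142). Apolipoprotein D (13_Contig_3452), a lipocalin, had 371670 reads over the young larva libraries and 2 reads over the subimago libraries, a ratio of 161765 with a 95% exact interval of 44781 to 1335750 that covers counting error only. A unigene named hemocyanin subunit F, an oxygen carrier, had 11.6, 10.2 and 8.58 CPM in young larvae and 3 reads in all subimago libraries (ratio 451, interval 154 to 2190). The unigene Putative x globin had 37.8, 33.9 and 41.5 CPM in young larvae and between 0.0395 and 0.0556 CPM in subimagoes (-9.64 ± 0.24, adjusted p = 3.58e-06). The rise in this list was in a soma ferritin (13_Contig_2710), an iron store, from 20.5, 5.73 and 14 CPM to 30.6, 56.1 and 39.5 CPM (1.65 ± 0.49, adjusted p = 0.0226). Its call was lost with no filter on low counts (adjusted p = 0.0815), without subimago replicate 2 (adjusted p = 0.0566) and without young larva replicate 3 (adjusted p = 0.065).

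Most unigenes on the ion and water transport list were lower in subimagoes. Their names do not say whether a member serves the salt balance of the freshwater larva, and that was not tested. Of 72 unigenes of ion transport and osmoregulation, 44 fell and 13 rose (median -0.84), and 6 of the falls were low in young larva replicate 2. The sodium-potassium ATPase alpha subunit (13_Contig_504) went from 1256, 1603 and 1321 CPM to 683, 647 and 555 CPM (-1.15 ± 0.14, adjusted p = 5.11e-04). Carbonic anhydrase 2, which supplies protons and bicarbonate for ion exchange, was 351, 479 and 310 CPM in young larvae and 55.9, 56.3 and 52 CPM in subimagoes (-2.80 ± 0.18, adjusted p = 4.36e-05). The sodium-potassium-chloride cotransporter fell from 53.7, 79.7 and 57.4 CPM to 6.47, 5.9 and 5.34 CPM (-3.43 ± 0.20, adjusted p = 3.05e-05). An aquaporin (13_Contig_1746), a water channel, went from 134, 133 and 159 CPM to 38.6, 29.6 and 28.6 CPM (-2.14 ± 0.16, adjusted p = 7.13e-05). In each of these genes all young larva libraries lay above all subimago libraries. Some chloride channels moved the other way. A putative epithelial chloride channel protein (13_Contig_992) rose 15.2-fold, from 43.3, 46.1 and 41.4 CPM to 541, 699 and 754 CPM (3.93 ± 0.16, adjusted p = 1.12e-05), and 2 unigenes named chloride channel protein rose by 2.46 ± 0.15 and 0.89 ± 0.12 (adjusted p = 3.78e-05 and 8.86e-04).

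**Figure D3:**
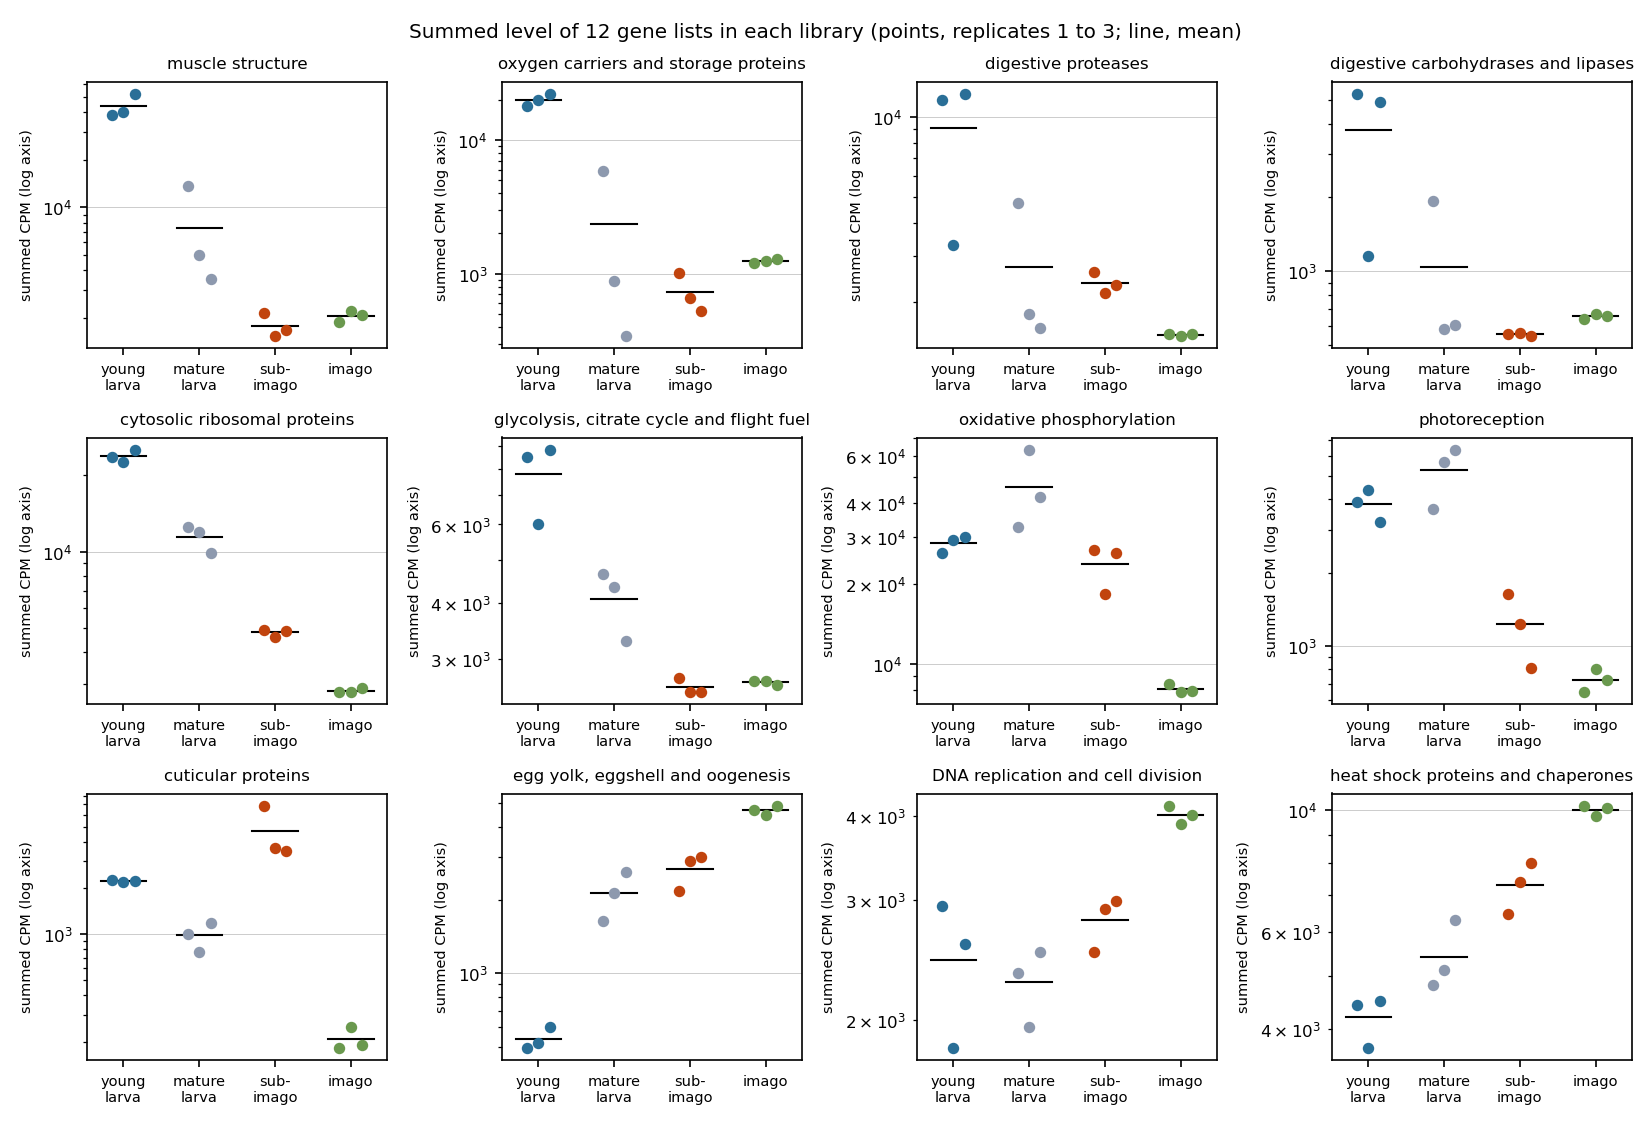
Summed TMM-scaled CPM of all members of 12 lists, tested or not, on log axes, with a point per library and a line at each stage mean. Mean muscle, storage, digestive and ribosomal sums are highest in young larvae, the sum of cuticular proteins is highest in subimagoes, and oogenesis and heat shock sums rise from young larvae to imagoes. In the digestive panels replicate 2 is the lowest of the young larva libraries.

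Different cuticle genes were high in each stage. The summed level of cuticular proteins was 2239, 2181 and 2206 CPM in young larvae and 6878, 3637 and 3493 CPM in subimagoes, 2.11-fold higher. In counts, 8 of 33 rose (24.2%) and 12 fell (36.4%), with a median log2 change of -0.55. Over all animal matches the shares were 40.7% and 36.5%. The order of the counts was reversed in a test against a 2-fold change (7 rose, 5 fell), without subimago replicate 2 (9 and 5) and without subimago replicate 3 (9 and 5). No fall in this list was low in young larva replicate 2. The unigene Cuticle protein (13_Contig_2062) was 5.69, 5.98 and 6.32 CPM in young larvae and 1510, 600 and 580 CPM in subimagoes (7.22 ± 0.51, adjusted p = 7.18e-05). Adult-specific cuticular protein ACP-20 (13_Contig_25170) went from 35.1, 35 and 48.2 CPM to 1320, 740 and 777 CPM (4.58 ± 0.31, adjusted p = 5.99e-05). In both, subimago replicate 1 was the highest library and the stages did not overlap. Levels in imagoes were 1.76 ± 0.524 and 0.298 ± 0.0133 CPM, below those of young larvae. Cuticular protein PxutCPR129, in contrast, fell from 33.6, 48.3 and 82 CPM to 4.26, 6.73 and 6.54 CPM (-3.22 ± 0.40, adjusted p = 6.44e-04). Pupal cuticle protein named unigenes that moved in both directions, 13_Contig_826 rising by 3.67 ± 0.47 (adjusted p = 7.52e-04) and 13_Contig_4841 falling by 2.00 on the log2 scale (adjusted p = 2.64e-04). The fall of 13_Contig_4841 did not pass when all 15 libraries entered the fit (adjusted p = 0.145).

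Chitin, the polysaccharide of the cuticle, is made by chitin synthase and removed by chitinases at each moult. Of 34 chitin unigenes, 10 rose and 16 fell (median -1.38), but 9 of the falls were low in young larva replicate 2, and without such unigenes 10 rose and 7 fell (median 0.50). The chitin synthase unigene 13_Contig_3176 rose from 37.3, 50.1 and 45.7 CPM to 171, 112 and 117 CPM (1.59 ± 0.21, adjusted p = 7.29e-04). Its namesake 13_Contig_24561 fell from 105, 11.9 and 96.2 CPM to 2.1, 1.6 and 1.61 CPM (-5.32 ± 0.87, adjusted p = 0.00217). Chitin synthase 13_Contig_2861 overlapped between the stages, with 90.5, 103 and 111 CPM against 157, 98 and 93.2 CPM (adjusted p = 0.461). Chitinase 13_Contig_914 was 588, 801 and 1094 CPM in young larvae and 42.9, 18.9 and 18.1 CPM in subimagoes (-4.96 ± 0.48, adjusted p = 2.51e-04), and putative chitinase 3 rose by 1.01 ± 0.23 (adjusted p = 0.00756).

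Genes that darken and harden cuticle also moved in both directions. Of 45 tested, 14 rose and 26 fell (median -2.71), and 5 falls were low in young larva replicate 2. Laccase 2, the phenol oxidase that hardens insect cuticle, was 317, 404 and 507 CPM in young larvae, 967, 609 and 720 CPM in subimagoes, 108, 88.5 and 15.4 CPM in mature larvae and 74.2 ± 17.9 CPM in imagoes. The rise over young larvae had a log2 change of 0.90 ± 0.24 (adjusted p = 0.0138) and did not pass with all 15 libraries in the fit (adjusted p = 0.261), without mature larva replicate 1 in that fit (0.231), with library totals (0.0517) or arthropod matches (0.0563) for scaling, with no filter on low counts (0.0809), or with a filter of at least 1 CPM in 3 libraries (0.0789). Laccase-4 fell from 263, 215 and 212 CPM to 24.7, 25.5 and 33.5 CPM (-3.04 ± 0.17, adjusted p = 2.58e-05). Unigenes named yellow, a family tied to melanin, went both ways. Protein yellow 13_Contig_1572 rose from 16.8, 22.4 and 15.1 CPM to 236, 107 and 71.3 CPM (2.93 ± 0.48, adjusted p = 0.00217), while 13_Contig_23897 fell from 84.1, 97.2 and 107 CPM to between 0.0278 and 0.118 CPM (-10.31 ± 0.38, adjusted p = 9.11e-06). Aromatic-L-amino-acid decarboxylase, which makes dopamine for tanning, rose by 1.57 ± 0.27 (adjusted p = 0.00237).

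Osiris 7 belongs to an insect family that in Drosophila acts in cells laying down cuticle. It was 19, 226 and 105 CPM in young larvae and 5204, 2233 and 2956 CPM in subimagoes. Despite a wide spread among young larvae, the stages did not overlap (4.89 ± 0.96, adjusted p = 0.00448, 5.89 without young larva replicate 2). In imagoes it was 1.57 ± 0.592 CPM. Osiris 16-like protein fell from 7.76, 70.7 and 28.8 CPM to 1.79, 0.948 and 0.946 CPM (-4.86 ± 0.89, adjusted p = 0.00333, -3.79 without young larva replicate 2).

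**Figure D4:**
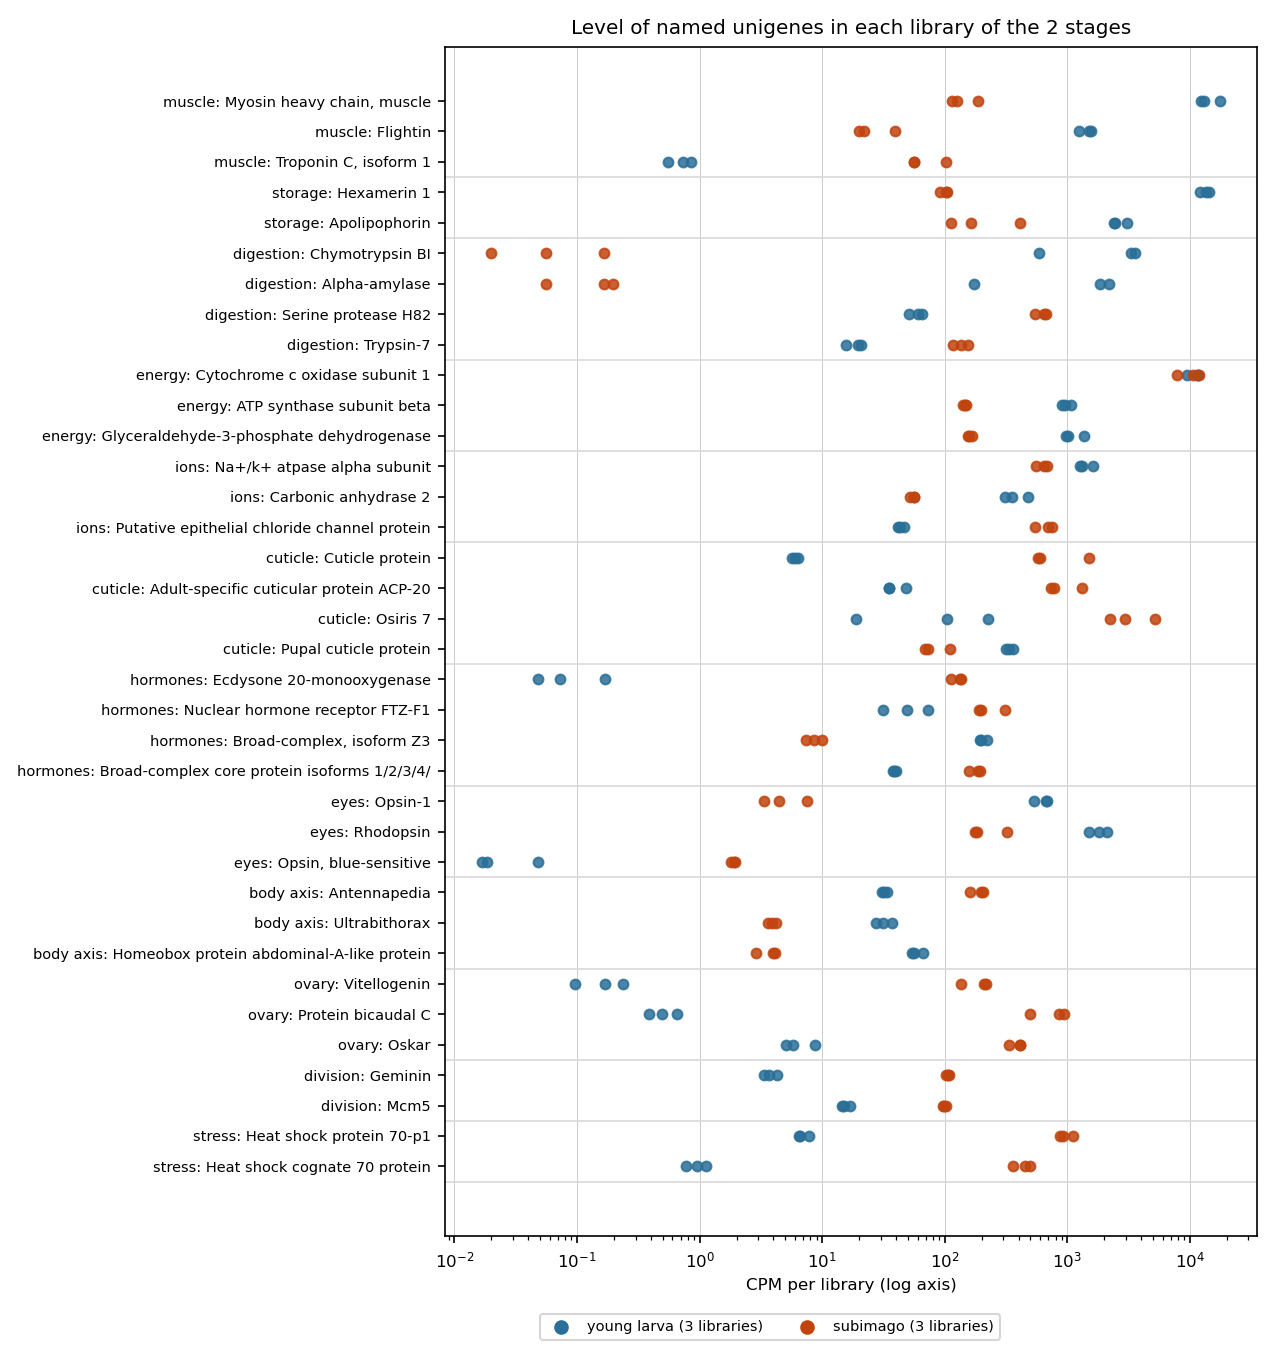
TMM-scaled CPM of named unigenes, grouped by role, in the 3 young larva and 3 subimago libraries on a log axis, a point per library. Among the unigenes drawn, only cytochrome c oxidase subunit 1 has stages that overlap.

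Of 22 ecdysteroid unigenes, 9 rose (40.9%) and 6 fell (27.3%), with a median log2 change of 0.02, beside 40.7% and 36.5% over all animal matches. Single members changed strongly. Ecdysone 20-monooxygenase (13_Contig_3366), the enzyme that makes 20-hydroxyecdysone, was 0.0482, 0.169 and 0.0733 CPM in young larvae and 113, 135 and 132 CPM in subimagoes (10.26 ± 0.41, adjusted p = 1.14e-05, 11.03 without young larva replicate 2). The nuclear receptor FTZ-F1, which in Drosophila follows the fall of an ecdysteroid pulse, rose from 72.9, 49.6 and 31.1 CPM to 311, 197 and 190 CPM (2.18 ± 0.37, adjusted p = 0.00233). Ecdysone receptor unigenes differed, with the A isoform rising from 7.96, 5.81 and 6.31 CPM to 17.5, 15.1 and 18.6 CPM (1.35 ± 0.20, adjusted p = 0.00114) and isoform B overlapping between stages (-0.06 ± 0.17, adjusted p = 0.763). The receptors HR3 (-0.64 ± 0.40, adjusted p = 0.19) and E75 (13_Contig_1952, -0.28 ± 0.15, adjusted p = 0.14) did not pass.

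Broad, a zinc-finger factor that marks the pupal stage in insects with a pupa, was represented by several unigenes that parted by name. Broad-complex isoform Z3 was 222, 192 and 197 CPM in young larvae and 7.43, 9.91 and 8.6 CPM in subimagoes (-4.56 ± 0.15, adjusted p = 7.64e-06), and isoform Z1 went from 81.6, 83 and 91.8 CPM to 4.12, 5.85 and 7.18 CPM (-3.90 ± 0.23, adjusted p = 3.11e-05). The unigene Broad-complex core protein isoforms 1/2/3/4/5 (13_Contig_5238) rose from 38.8, 37.5 and 40 CPM to 157, 187 and 194 CPM (2.21 ± 0.11, adjusted p = 2.06e-05). Core protein isoform 6 was 19.8, 25.5 and 19 CPM in young larvae, 142, 273 and 298 CPM in mature larvae, 77.3, 56.6 and 43.4 CPM in subimagoes and 32.6 ± 1.39 CPM in imagoes. It rose between the stages compared (1.46 ± 0.24, adjusted p = 0.00207) and was highest in mature larvae.

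Of 18 juvenile hormone unigenes, 12 fell and 3 rose (median -2.16), and 5 of the falls were low in young larva replicate 2. Juvenile hormone acid methyltransferase, which methylates the hormone or its precursor late in synthesis, rose from 0.579, 0.625 and 0.293 CPM to 6.69, 6.67 and 5.42 CPM (3.65 ± 0.36, adjusted p = 2.28e-04). CYP15A1, the cytochrome P450 that adds the epoxide of the hormone in the cockroach Diploptera, named 3 unigenes that moved both ways. In 13_Contig_10329 the level fell from 30.6, 25.8 and 41.7 CPM to 1.85, 1.34 and 0.974 CPM (-4.55 ± 0.34, adjusted p = 6.92e-05). The scarce 13_Contig_17979 had 3 reads over the young larva libraries and 1.96, 1.9 and 1.5 CPM in subimagoes (ratio 93.8, exact 95% interval 31.7 to 458). The other scarce unigene, 13_Contig_11661, was at most 0.203 CPM in young larvae and between 0.584 and 0.927 CPM in subimagoes (2.96 ± 0.82, adjusted p = 0.0164). That call was lost without subimago replicate 1 (0.0694), subimago replicate 2 (0.0613) or young larva replicate 3 (0.0784), and the log2 change was 4.27 without young larva replicate 2. Among enzymes that degrade the hormone, juvenile hormone epoxide hydrolase 1 went from 45, 18 and 55.6 CPM to 4.76, 6.04 and 5.15 CPM (-2.89 ± 0.44, adjusted p = 0.00154) and a juvenile hormone esterase (13_Contig_20943) from 13.3, 10.5 and 15.6 CPM to 3.36, 1.82 and 1.36 CPM (-2.59 ± 0.39, adjusted p = 0.00136). Juvenile hormone esterase-like protein Est1 (13_Contig_3547) overlapped between the stages, with 485, 59.8 and 223 CPM against 55.1, 74 and 18.1 CPM (-2.38 ± 0.85, adjusted p = 0.0437, -1.54 without young larva replicate 1). Its call was lost without any single library other than young larva replicate 2 (adjusted p from 0.0764 to 0.129), with the replicate block (0.0738) and with no filter on low counts (0.161). The receptor gene methoprene-tolerant did not pass, with 206, 150 and 177 CPM against 175, 228 and 205 CPM (0.19 ± 0.16, adjusted p = 0.312).

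**Figure D5:**
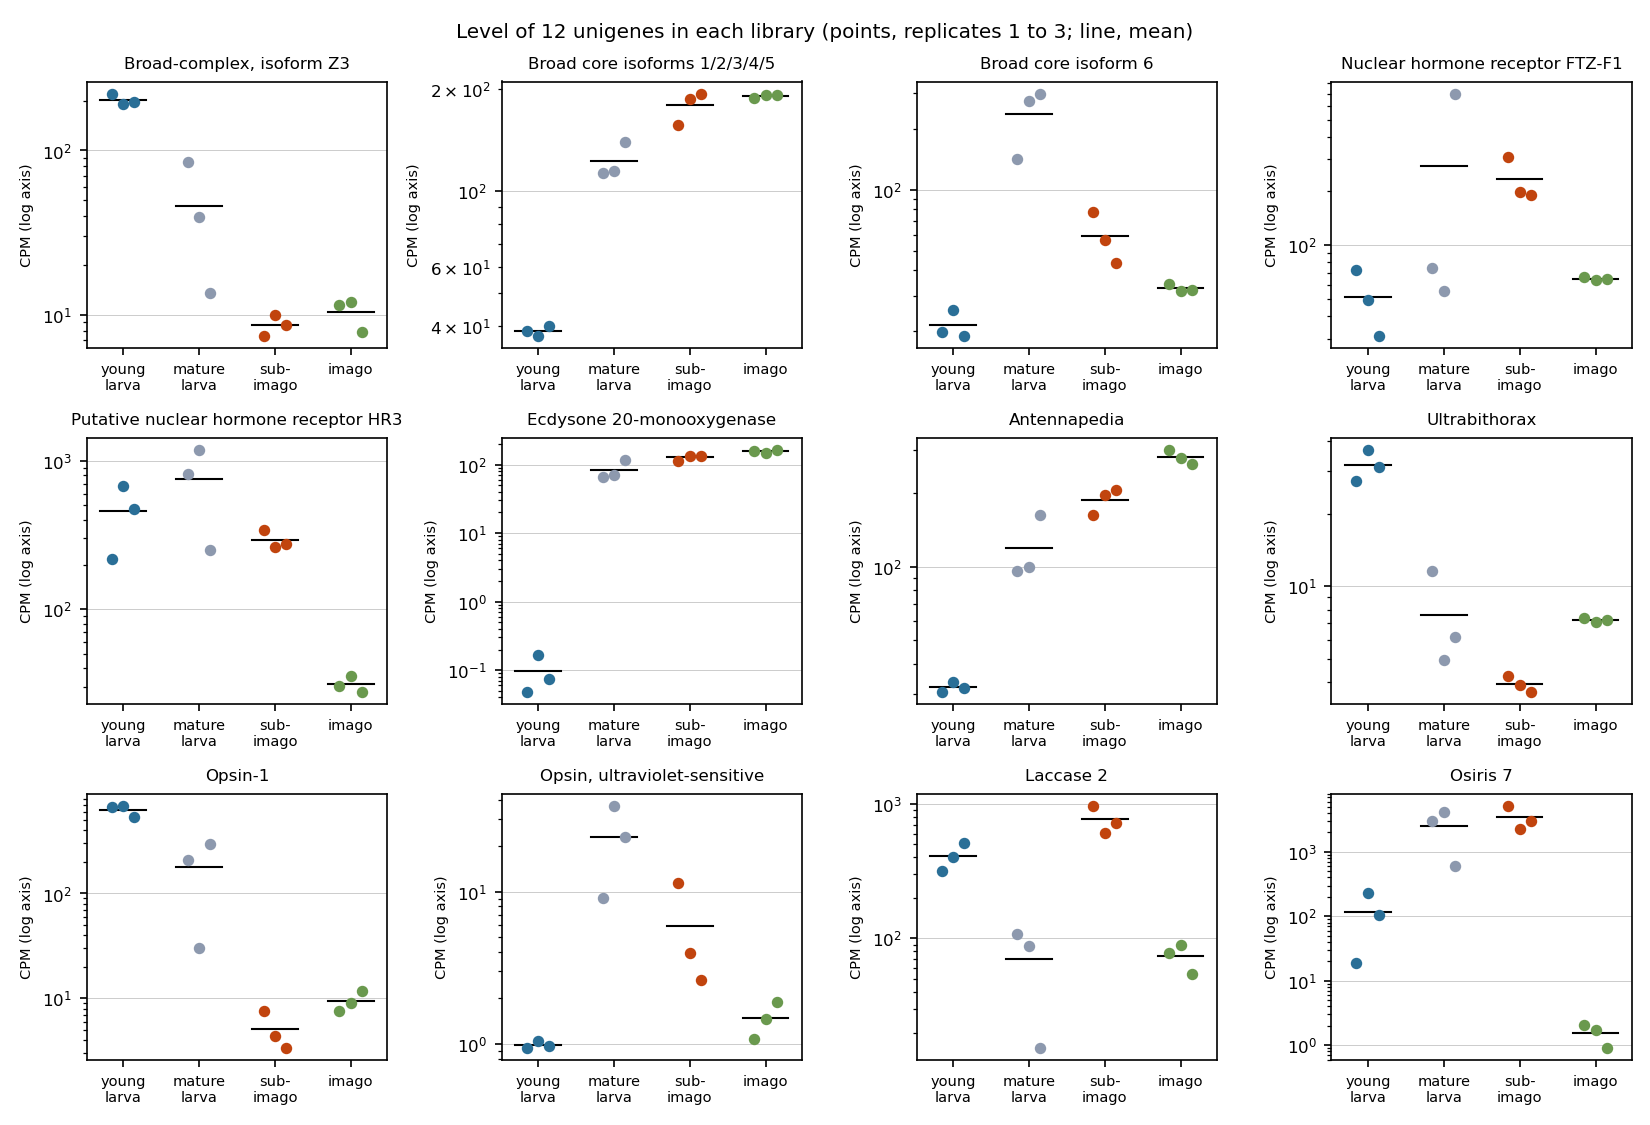
TMM-scaled CPM of 12 unigenes in the libraries of young larvae, mature larvae, subimagoes and imagoes on log axes, a point per library and a line at the mean. Broad-complex isoform Z3, Ultrabithorax and Opsin-1 are low in subimagoes and imagoes, and ecdysone 20-monooxygenase and Antennapedia are high there. In mature larvae, isoform Z3 is already at 85.2, 39.5 and 13.6 CPM and ecdysone 20-monooxygenase at 65, 70.6 and 116 CPM. Laccase 2 is highest in subimagoes.

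Among 41 neuropeptide and receptor unigenes, 12 rose (29.3%) and 10 fell (24.4%), with a median log2 change of -0.03. Over all animal matches 40.7% rose and 36.5% fell. The order of the counts was level under 3 other scalings, for example on library totals (9 and 9). It turned under scaling on arthropod matches (10 and 13) and a filter of at least 1 CPM in 3 libraries (8 and 11). Cardioactive peptide, a trigger of moulting behaviour in insects, went from 16.4, 19.1 and 13.4 CPM to 3.15, 3.79 and 3.7 CPM (-2.20 ± 0.21, adjusted p = 2.11e-04). The SIFamide receptor rose from 1.83, 1.66 and 1.21 CPM to 13.1, 17.9 and 13 CPM (3.23 ± 0.27, adjusted p = 1.10e-04). The insulin-like peptide receptor, a sensor of nutrition, fell from 103, 96.8 and 109 CPM to 47.6, 46.4 and 47.3 CPM (-1.13 ± 0.09, adjusted p = 1.06e-04).

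Most unigenes of the cytosolic ribosomal protein list were lower and most of the cell division list were higher in subimagoes. Cytosolic ribosomal proteins were the most uniform list, with 94 falls and 2 rises among 97 tested and a median log2 change of -2.49. Among them 26 falls were low in young larva replicate 2, and the median without such unigenes was -2.23. The list summed to 23637, 22617 and 25301 CPM in young larvae, 4921, 4622 and 4850 CPM in subimagoes and 2829 ± 58.5 CPM in imagoes. 40S ribosomal protein S2 went from 698, 937 and 778 CPM to 150, 143 and 128 CPM (-2.52 ± 0.14, adjusted p = 2.69e-05). Elongation factor 1-alpha, which brings aminoacyl-tRNA to the ribosome, went from 2119, 2326 and 2374 CPM to 368, 419 and 417 CPM (-2.50 ± 0.11, adjusted p = 1.18e-05). Translation factors as a list were mixed, with 28 rises and 54 falls of 99 (median -0.43). Of these falls 22 were low in young larva replicate 2, and without such unigenes 28 rose and 32 fell of 77 (median -0.11). Eukaryotic translation initiation factor 5 rose from 259, 228 and 255 CPM to 438, 495 and 486 CPM (0.93 ± 0.10, adjusted p = 3.16e-04). Of 43 proteasome unigenes, 21 fell and 8 rose (median -0.47), with 8 of the falls low in young larva replicate 2. Proteasome activator complex subunit 4 was among those that rose (1.94 ± 0.14, adjusted p = 5.75e-05).

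Of 64 unigenes of DNA replication and cell division, 49 rose and 11 fell, with a median log2 change of 1.70, and 10 of the 11 falls were low in young larva replicate 2. Among arthropod matches 45 of 52 rose and 3 fell. The summed level of the list overlapped between the stages. It was 2946.5, 1818.6 and 2588.3 CPM in young larvae and 2515.3, 2916.3 and 2989.1 CPM in subimagoes. The ratio of the means was 1.15, and 1.01 without young larva replicate 2. Polo, a mitotic kinase, had 6 reads over the young larva libraries and stood at 107, 102 and 106 CPM in subimagoes (11.33 ± 0.52, adjusted p = 1.70e-05, 12.14 without young larva replicate 3). Geminin, which limits DNA replication to a single round per cycle, went from 3.37, 3.7 and 4.27 CPM to 103, 106 and 109 CPM (4.81 ± 0.14, adjusted p = 5.15e-06). Cell division cycle protein 20, an activator of the anaphase-promoting complex, rose from 9.35, 7.19 and 8.54 CPM to 142, 186 and 191 CPM (4.37 ± 0.18, adjusted p = 1.16e-05). These genes were close to 0 or low in every young larva library and high in every subimago library. PCNA, the sliding clamp of DNA polymerase, rose from 39, 36.8 and 39.4 CPM to 53.3, 69.3 and 71.8 CPM (0.76 ± 0.14, adjusted p = 0.00329). The helicase subunit Mcm5 (13_Contig_3573) rose from 17, 14.6 and 15.1 CPM to 97.4, 103 and 98.7 CPM (2.68 ± 0.11, adjusted p = 1.13e-05). A second unigene of that name, DNA replication licensing factor mcm5 (13_Contig_58510), had 52.1, 9.05 and 31.7 CPM in young larvae and no read in subimagoes, at least 1283-fold lower against a floor of 3 reads over the subimago libraries.

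Copies with this pattern, high in young larva replicates 1 and 3, lower in replicate 2 and close to 0 in subimagoes, occurred beside other unigenes of the same name. Alpha-enolase (13_Contig_24916, with an other-animal match) had 691, 131 and 494 CPM in young larvae and 0.33, 0.0395 and 0.195 CPM in subimagoes (log2 change -11.18 ± 1.07, adjusted p = 2.47e-04, -10.50 without subimago replicate 2), against 525, 533 and 750 CPM and 72.2, 73.2 and 65.5 CPM for Putative enolase (13_Contig_5673). Glyceraldehyde-3-phosphate dehydrogenase 13_Contig_19803 had 542, 45.9 and 215 CPM in young larvae and 0.309, 0 and 0.445 CPM in subimagoes.

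Genes of yolk and the female germ line rose in the pools of both sexes. Of 24 unigenes of yolk, eggshell and oogenesis, 15 rose and 6 fell, with a median log2 change of 1.86. The summed level of the whole list was 5-fold higher in subimagoes. Vitellogenin (13_Contig_814), the yolk precursor, was 0.0964, 0.169 and 0.238 CPM in young larvae and 135, 210 and 215 CPM in subimagoes (10.06 ± 0.41, adjusted p = 1.20e-05). The vitellogenin receptor, the uptake receptor of the oocyte, was not read in young larvae in 13_Contig_5313 and stood at 45.5, 81.2 and 69.7 CPM in subimagoes, at least 3381-fold higher against the floor of 3 reads. Its other unigene, 13_Contig_598, went from 0.145, 0.625 and 0.183 CPM to 185, 199 and 205 CPM (9.22 ± 0.62, adjusted p = 5.93e-05, 10.28 without young larva replicate 2). Bicaudal C, an RNA-binding protein of oocyte polarity in Drosophila, rose from 0.386, 0.49 and 0.66 CPM to 493, 862 and 937 CPM and was 2153 ± 104 CPM in imagoes (10.53 ± 0.43, adjusted p = 1.27e-05). Oskar and vasa, which in Drosophila build the germ plasm, rose by 5.87 ± 0.27 and 3.55 ± 0.25 (adjusted p = 1.61e-05 and 6.13e-05). All of these had every subimago library above every young larva library. In mature larvae vitellogenin already stood at 175, 125 and 294 CPM.

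Sperm and axoneme unigenes had 4 rises and 11 falls of 23 (median -0.92), and 6 of the falls low in young larva replicate 2. Tektin-3, a protein of axonemal microtubules, fell from 21.5, 18 and 23.4 CPM to 10.9, 10.6 and 11.7 CPM (-0.92 ± 0.16, adjusted p = 0.00249), and a ciliary dynein beta chain (13_Contig_5993) rose from 7.23, 10.1 and 9.16 CPM to 52.5, 38.8 and 46.8 CPM (2.38 ± 0.19, adjusted p = 1.04e-04). Sperm-tail PG-rich repeat protein (13_Contig_1196) had no read in young larvae and 82, 95.3 and 88.4 CPM in subimagoes, at least 4591-fold higher.

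Opsins, the light receptors of the eye, changed in both directions. Of 24 photoreception unigenes, 10 rose (41.7%) and 8 fell (33.3%), with a median log2 change of 0.17. Over all animal matches the shares were 40.7% and 36.5%. The order of the counts turned under scaling on arthropod matches (10 and 11) and a filter of at least 1 CPM in 3 libraries (9 and 10). It was level with the replicate block (10 and 10), while the summed level of the list fell 3.13-fold. Opsin-1 (13_Contig_874) was 670, 688 and 531 CPM in young larvae and 7.56, 4.42 and 3.37 CPM in subimagoes, with no overlap (-6.94 ± 0.39, adjusted p = 3.13e-05). The unigene Rhodopsin (13_Contig_1132) fell from 1798, 2085 and 1509 CPM to 323, 176 and 182 CPM (-2.99 ± 0.29, adjusted p = 2.75e-04). Unigenes named for short-wavelength opsins went both ways. UV-sensitive opsin 13_Contig_8248 fell from 34.7, 40.7 and 28.5 CPM to 12, 7.98 and 7.68 CPM (-1.91 ± 0.24, adjusted p = 6.49e-04). Opsin, ultraviolet-sensitive (13_Contig_12636) rose from 0.94, 1.05 and 0.971 CPM to 11.4, 3.93 and 2.61 CPM (2.60 ± 0.59, adjusted p = 0.00765, 1.90 without subimago replicate 1). A blue-sensitive opsin rose from at most 0.0482 CPM to 1.79, 1.9 and 1.95 CPM (6.03 ± 0.44, adjusted p = 6.59e-05). Arrestin1, which shuts off activated opsin, did not pass, with 155, 145 and 120 CPM against 244, 151 and 64.8 CPM.

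Chemosensory unigenes fell in 10 of 27 cases (37%, beside 36.5% over all animal matches) and rose in 4 (median -0.48). The summed level of the whole list went the other way, 1.47-fold higher in subimagoes with no overlap. It was 197, 147 and 131 CPM in young larvae and 279, 204 and 214 CPM in subimagoes. Odorant binding protein 13 fell from 15, 15.6 and 10.2 CPM to 0.659, 0.691 and 1.31 CPM (-3.95 ± 0.38, adjusted p = 2.04e-04). Gustatory receptor trehalose 1, a sugar receptor, rose from 5.83, 5.73 and 7.11 CPM to 65, 75.9 and 77.4 CPM (3.55 ± 0.15, adjusted p = 1.21e-05). This single unigene made up most of the rise in the summed level of the list. Of 110 neuronal channel and receptor unigenes, 20 rose (18.2%) and 47 fell (42.7%), with a median log2 change of -0.51, beside 40.7% and 36.5% over all animal matches. The voltage-dependent calcium channel gamma-1 subunit, known in vertebrates from skeletal muscle, fell from 164, 261 and 184 CPM to 6.92, 5.79 and 5.51 CPM (-5.06 ± 0.23, adjusted p = 1.48e-05). The synaptic vesicular amine transporter, which loads monoamines into vesicles, rose from 99.4, 104 and 88.9 CPM to 217, 255 and 249 CPM (1.30 ± 0.11, adjusted p = 1.25e-04).

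Patterning genes moved in both directions with small replicate errors. Among 30 unigenes of wing patterning 11 rose (36.7%) and 9 fell (30%), with a median log2 change of -0.03. Over all animal matches the shares were 40.7% and 36.5%. Under scaling on arthropod matches, as under a filter of at least 1 CPM in 3 libraries, 9 rose and 11 fell. Scalloped, the DNA-binding partner of vestigial in the Drosophila wing, rose from 85.6, 84 and 79 CPM to 249, 261 and 274 CPM (1.66 ± 0.09, adjusted p = 2.28e-05), while vestigial fell from 13.5, 16.3 and 18.1 CPM to 5.15, 4.68 and 5.59 CPM (-1.63 ± 0.19, adjusted p = 4.65e-04). Hedgehog, a secreted signal, went from 8.7, 10 and 8.94 CPM to 82.5, 109 and 122 CPM (3.50 ± 0.18, adjusted p = 2.05e-05), and its transducer smoothened (13_Contig_65) rose by 1.98 ± 0.11 (adjusted p = 2.63e-05). A second smoothened unigene (13_Contig_10446) fell, from 16.2, 19.5 and 24.7 CPM to 8.09, 2.74 and 5.03 CPM (-1.93 ± 0.42, adjusted p = 0.00618). Optomotor-blind, a target of wing growth signals in Drosophila, rose by 1.79 ± 0.11 (adjusted p = 3.40e-05), and apterous a, the dorsal selector of the wing there, fell by 1.15 on the log2 scale (adjusted p = 0.00321).

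Of 37 homeobox unigenes, 14 rose (37.8%) and 10 fell (27%), with a median log2 change of -0.14. Over all animal matches 40.7% rose and 36.5% fell. Under scaling on arthropod matches 13 of the list rose and 15 fell. The Hox genes, which set segment identity, went both ways. Antennapedia, a thoracic gene, rose from 30.7, 33.7 and 31.8 CPM to 162, 197 and 205 CPM (2.55 ± 0.12, adjusted p = 1.71e-05). Ultrabithorax, of the hind thorax and anterior abdomen, fell from 27.3, 36.9 and 31.3 CPM to 4.22, 3.87 and 3.64 CPM (-3.02 ± 0.18, adjusted p = 3.11e-05). Abdominal-A went from 54.2, 65.9 and 56.5 CPM to 4.14, 3.97 and 2.89 CPM (-4.00 ± 0.20, adjusted p = 1.76e-05), and Abdominal-B, of the posterior abdomen, from 27.6, 36.2 and 26.2 CPM to 8.28, 11.2 and 9.46 CPM (-1.64 ± 0.20, adjusted p = 5.54e-04). Sex combs reduced, of the labium and first thoracic segment, did not pass (0.35 ± 0.17, adjusted p = 0.104). The head genes OTX1 and SIX6, as named by their best matches, rose by 4.05 ± 0.32 and 5.67 ± 0.26 (adjusted p = 9.86e-05 and 1.39e-05).

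Chaperones rose more often than they fell. Of 69 heat shock and chaperone unigenes, 37 rose and 17 fell (median 0.55), and 7 of the falls were low in young larva replicate 2. Heat shock protein 70-p1 (13_Contig_219) was 7.74, 6.55 and 6.43 CPM in young larvae and 864, 921 and 1105 CPM in subimagoes, 139-fold higher (7.12 ± 0.17, adjusted p = 3.53e-06). Heat shock protein 90, a chaperone of signalling proteins, rose from 164, 131 and 147 CPM to 574, 663 and 806 CPM (2.21 ± 0.16, adjusted p = 6.87e-05). The long heat shock cognate protein 70 unigene (13_Contig_3173) had a log2 change of -0.41 ± 0.14 (adjusted p = 0.0396), a call lost without subimago replicate 1 (0.38), 2 (0.145) or 3 (0.222), without young larva replicate 3 (0.0536), with the replicate block (0.0824) and in DESeq2 (0.185). Of 44 cell death and autophagy unigenes, 22 rose (50%) and 17 fell (38.6%), with a median log2 change of 0.44. Over all animal matches 40.7% rose and 36.5% fell. Under the filter of at least 1 CPM in 3 libraries, 18 of the list rose and 18 fell. A caspase (13_Contig_9889), a protease that executes cell death, rose from 8.24, 6.49 and 7.44 CPM to 52.4, 63.5 and 64.9 CPM (3.03 ± 0.16, adjusted p = 2.16e-05), and autophagy protein 5 rose by 2.32 ± 0.14 (adjusted p = 3.55e-05). Inhibitor of apoptosis 2 protein fell from 75.8, 76.6 and 77.1 CPM to 22.1, 19.8 and 16.4 CPM (-1.98 ± 0.14, adjusted p = 5.78e-05), while another inhibitor of apoptosis protein (13_Contig_6253) rose from 0.41, 1.06 and 1.21 CPM to 69.7, 97.8 and 108 CPM (6.66 ± 0.48, adjusted p = 7.49e-05).

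Most detoxification and immune unigenes were lower in subimagoes. Of 110 detoxification unigenes, 70 fell and 18 rose (median -2.66), but 49 of the 70 falls were low in young larva replicate 2, and the median without such unigenes was -0.24. Cytochrome P450 6BQ8, of an enzyme family that oxidises foreign compounds, rose from 1.98, 2.28 and 1.37 CPM to 53.1, 64.9 and 63.3 CPM (5.01 ± 0.24, adjusted p = 1.70e-05). Of 50 immune unigenes, 34 fell and 8 rose (median -2.75), and 10 of the falls were low in young larva replicate 2. Protein toll (13_Contig_12415), a receptor for the ligand spaetzle, went from 88.4, 98.5 and 91.2 CPM to 1.77, 1.5 and 0.834 CPM (-6.07 ± 0.31, adjusted p = 2.11e-05). Spaetzle itself fell from 105, 168 and 127 CPM to 19.2, 16.1 and 11.8 CPM (-3.08 ± 0.26, adjusted p = 1.27e-04). Relish, the transcription factor of the other immune branch in Drosophila, rose from 30.8, 26 and 29.2 CPM to 88.3, 90.9 and 97.9 CPM (1.69 ± 0.11, adjusted p = 4.54e-05).

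Some unigenes were read in a single stage only. Those counted here had at least 10 reads in each library of a stage and none in the other. Of the 17344 animal matches, 312 were limited to young larvae and 54 to subimagoes. The counts were 167 and 34 of 15002 arthropod matches, and 145 and 20 of 2342 other-animal matches. Outside the animal matches they were 1008 and 15 of 13670 protist or fungus matches, and 829 and 445 of 60867 unigenes with no match. Histone H1 (13_Contig_411), a linker histone, had 0 reads in young larvae and 484, 459 and 462 CPM in subimagoes, at least 24262-fold higher against a floor of 3 reads over the young larva libraries. It was present in mature larvae at 252, 208 and 210 CPM and in imagoes at 641 ± 95.3 CPM. Tankyrase, a poly-ADP-ribosylating enzyme, was at least 6863-fold higher, with 138, 125 and 136 CPM in subimagoes. On the larval side, alkaline phosphatase (13_Contig_16515) had 186, 62.9 and 301 CPM in young larvae and no read in subimagoes, at least 8089-fold lower, and the protease brachyurin had 182, 31.2 and 202 CPM, at least 5920-fold lower. Both larval unigenes were lowest in young larva replicate 2. The call of brachyurin was lost with no filter on low counts (adjusted p = 0.0555).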

How the data were processed

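Whole-body RNA of 15 pooled libraries was sequenced as 125 bp pairs, and per the labels' protocols the reads were cleaned and freed of ribosomal RNA, and unigenes were built de novo with CLC Genomics Workbench, then CAP3. The authors deposited counts of reads per unigene and library, the unigene length in bases as another column, and RPKM values, which equal the count divided by length and library total within a relative difference of 3.42e-07. Counts were used here. RPKM was used only in that check. No mapper or strand setting is given in the sources used here. The submitters' processing notes name DESeq, with no version.

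From the deposited counts, unigenes were filtered with filterByExpr on the 6 libraries, scaled by TMM factors over all 15, and tested with edgeR 4.0.16 (glmQLFit with robust set, glmQLFTest) in R 4.3.3 with limma 3.58.1, with Benjamini-Hochberg adjustment over 29479 unigenes and a threshold of 0.05. The fit was also run on simulated counts in which far fewer unigenes changed than were called here. That run therefore cannot test the scaling or the calls of these data. SE values come from the fit. Intervals for 1 to 3 reads are exact at 95%, and a floor of 3 reads over the 3 libraries of a stage stands for 0. Replicates differed by more than sampling noise (chi-square per degree of freedom 36 to 455).

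Best matches were sorted into animal, protist or fungus by the species code in the annotation. The members and lists were chosen with earlier results of these data known. Named unigenes are a choice of the 12 largest rises and falls among arthropod matches, up to 3 of the most abundant called rises and falls per list, and the 5 with the most reads limited to each stage. Others (for example flightin, Polo, geminin, the opsins other than Opsin-1 and Rhodopsin, and Abdominal-B) were chosen for their role after their values were seen. Alternatives were other scalings, DESeq2 1.42.0, other filters, a 2-fold threshold, a fit on 14 or 15 libraries, a replicate block, counts summed by annotation, and leaving out each library. Leaving out unigenes low in young larva replicate 2 was added after seeing the data.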

Additional observations from a re-analysis of the deposited data

How the results depend on the processing

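The median log2 change of animal matches was 0.09, and it moved to -0.20 with scaling on arthropod matches, to -0.09 with library totals and to -0.05 with TMM over the 6 libraries, so changes of that size depend on the scaling. The share of higher among called animal matches was 52.7% and lay between 46.4 and 56.7% over other scalings, tests, filters and libraries left out. It was 59% with counts summed by annotation text and 63% without the unigenes low in young larva replicate 2. In the test against a 2-fold change, 3366 animal matches were higher. With counts summed over unigenes of the same annotation text, 2869 names were higher and 1996 lower. Without the unigenes low in young larva replicate 2, 2990 were lower. These counts fall by construction, since fewer features or only larger changes are counted. Leaving out a library in turn gave 4896 to 5498 higher and 4018 to 4761 lower. The replicate numbers did not pair the libraries, as same-numbered libraries correlated at -0.0118, 0.035 and 0.0292 in their deviations from the stage means, and the replicate block gave 5089 higher and 4566 lower. No named unigene with a call changed its direction under any alternative run. Depth limits values under about 0.02 CPM, the level of 3 reads over a stage (0.0193 in young larvae, 0.0222 in subimagoes).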
